A study of Rattus norvegicus with 12 samples.

Results

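Microtubule-associated proteins bind along microtubules, the tubulin polymers that run through axons and dendrites, and set how stable those polymers are and how motors travel on them. Described here are 6 genes of this kind, out of 10411 with a gene symbol of their own on the array, measured through 13 of the 15923 probe sets in the deposited table. The members were all probe sets whose only annotated gene symbol was Map1a, Map1b, Map2, Map4, Map6 or Mapt, the tau gene. The genes were chosen with earlier learning against control values of these same arrays in view, including a disagreement between the probe sets of Map1b, so those differences are given as a description and not as tests.

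Each of the 12 arrays held RNA from the CA1 field of the hippocampus of 1 male Long-Evans rat aged 3 to 4 months, hybridised to the Affymetrix RAE230A array. The spatial learning group of 6 rats swam 8 trials in a new water maze that offered orienting cues and a visible platform fixed in place. The control task group of 6 rats swam 8 trials to a visible platform that changed place between trials, with no useful cues around it. Rats of both groups had been trained in a standard spatial water maze 2 to 3 weeks before, their 8 trials were spaced 8 minutes apart, and a 90-second trial without the platform came 1 hour after the last one, directly before tissue was taken. No genotype or drug differed between the groups, and the control rats too had swum, seen a platform and learned a maze earlier, so the comparison is between 2 kinds of session and not with untrained animals.

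The genes fall into structural families. Map2, Map4 and Mapt encode proteins that bind microtubules through related repeats near the carboxyl end, Map1a and Map1b encode 2 large proteins that are each cut into a heavy and a light chain, and Map6 encodes the STOP proteins, which make microtubules resistant to cold. In neurons MAP2 is found chiefly in the cell body and dendrites and tau chiefly in the axon, while MAP4 is also found widely outside the nervous system. MAP1B is prominent in developing neurons and MAP1A in mature ones.

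Levels below are the deposited log2 signal of a probe set, a group of 25-base probes for 1 transcript. Signals of different probe sets are not on a common scale, so a level is set against the same probe set on other arrays. Where 1 probe set is subtracted from another on the same array, the result is compared only between arrays. A difference is spatial learning minus control task, with limma's standard error (SE) from a fit over all tested probe sets. All 13 probe sets passed the filter on dim signals, a mean of at least 4 over the 12 arrays, as did 9610 probe sets in all. Of those 9610, 0 passed a limma adjusted p of 0.05, which is 0% of the table, while 1048 (10.9%) had an unadjusted p under 0.05. Among the 13 members 0 passed and 5 had an unadjusted p under 0.05, and nothing is read from that share because the genes were chosen on this contrast. The members' median difference was -0.07, with 4 higher and 9 lower, beside a median of 0.01 over all tested probe sets, of which 5164 were higher and 4446 lower. Some arrays stood apart in tissue markers: control replicate 3 had a choroid plexus marker mean of 6.56, with the other 11 arrays between 4.36 and 5.25, and spatial learning replicate 6 and control replicate 6 had meningeal marker means of 6.75 and 6.84, with the other 10 between 5.38 and 5.81. Without these 3 arrays the difference was 0.18 for Map4 1371607_at, 0.19 for Map4 1373268_at, -0.69 for Map1b 1371003_at, -0.07 for Map1b 1373363_at, -0.29 for Map2 1368411_a_at and -0.14 for Map6 1371087_a_at, beside the values with all arrays that follow.

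**Figure D1:**
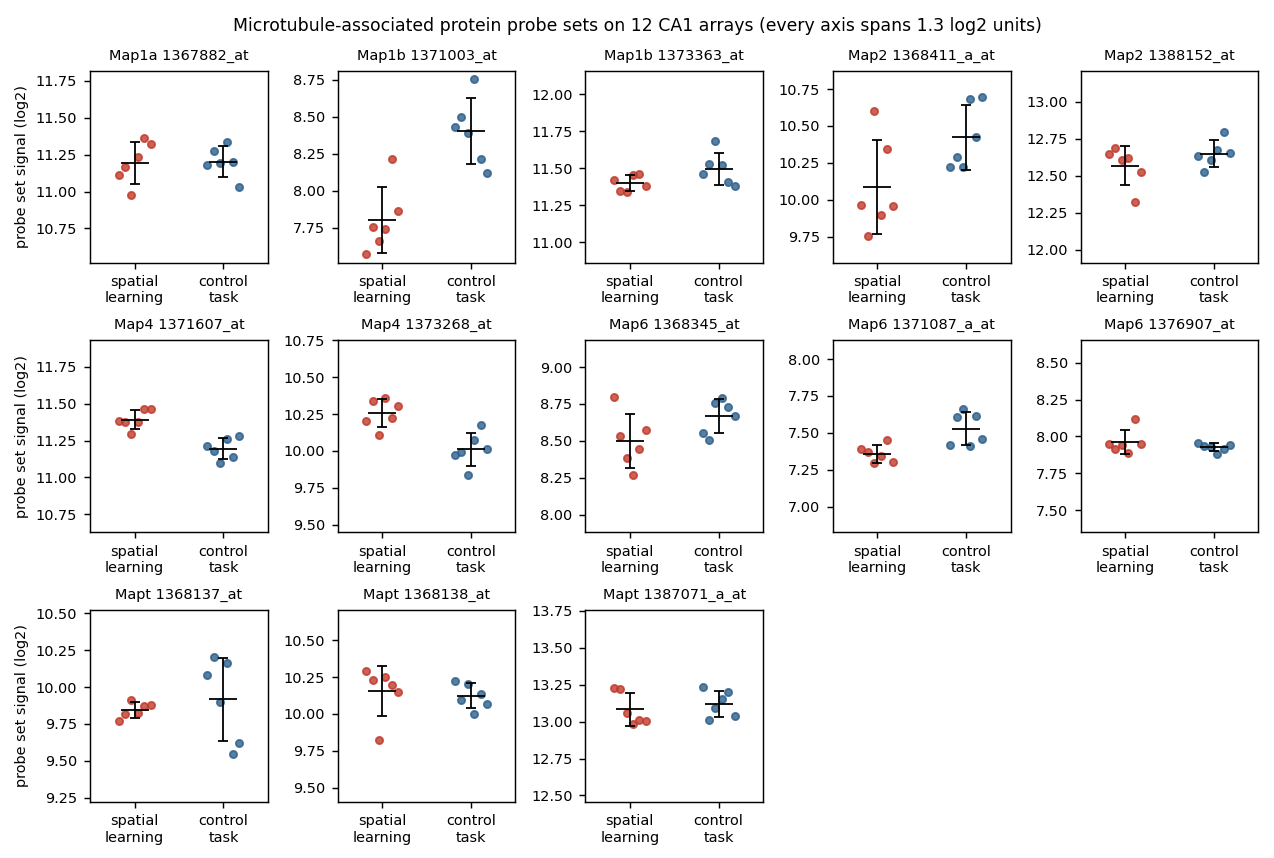
Log2 signal of each of the 13 probe sets (vertical axis, 1.3 log2 units in every panel) in the 6 spatial learning arrays (red, left) and the 6 control task arrays (blue, right), 1 point per array, with bars for the mean and SD. Map4 1371607_at has all red points above the blue ones, and Map1b 1371003_at has 5 of 6 red points below the lowest blue one.

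Map4, the broadly expressed relative of MAP2 and tau, was the one gene whose probe sets both stood higher after spatial learning. Probe set 1371607_at ran from 11.29 through a median of 11.38 to 11.46 in spatial learning arrays, against 11.10 through 11.19 to 11.28 in control task arrays. The groups did not overlap, the lowest spatial learning array lying just above the highest control. The means were 11.39 ± 0.06 after spatial learning and 11.19 ± 0.07 after the control task (SD, n = 6 each), a difference of 0.20 (SE 0.04), or a linear ratio of 1.15. Over all tested probe sets, 0.364% separated the groups in this upward direction and 0.635% in either direction, and 1 of the 13 members did.

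The second Map4 probe set, 1373268_at, ran from 10.10 through 10.26 to 10.36 in spatial learning arrays and from 9.84 through 10.00 to 10.18 in control task arrays. Here 5 of 6 spatial learning arrays exceeded the highest control, and the remaining one, replicate 3, overlapped it. Its means were 10.26 ± 0.10 after spatial learning and 10.01 ± 0.11 after the control task (SD, n = 6 each), a difference of 0.24 (SE 0.06) and a linear ratio of 1.18. The per-array gap between the Map4 probe sets was taken as 1373268_at minus 1371607_at. It averaged -1.14 ± 0.09 in spatial learning arrays and -1.18 ± 0.11 in control task arrays (SD, n = 6 each). The gene thus gave nearly the same difference through either probe set. These probe sets were annotated to different sequence records.

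Map1b gave differences of unlike size at its 2 probe sets. Probe set 1371003_at had the widest difference of any member. It ran from 7.57 through a median of 7.75 to 8.21 in spatial learning arrays and from 8.12 through 8.41 to 8.76 in control task arrays. Of the 6 spatial learning arrays, 5 lay below every control, and replicate 5, at 8.21, lay above control replicate 6, at 8.12, and just under control replicate 5, at 8.22. The means were 7.80 ± 0.22 after spatial learning and 8.40 ± 0.22 after the control task (SD, n = 6 each), a difference of -0.60 (SE 0.12) and a linear ratio of 0.658. A difference of this size or more, in either direction, was found in 0.281% of the tested probe sets. Since the gene was chosen on this contrast, nothing is read from that share.

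The brighter Map1b probe set, 1373363_at, ran from 11.34 through 11.40 to 11.46 in spatial learning arrays and from 11.38 through 11.49 to 11.68 in control task arrays. All 6 spatial learning arrays lay below the control median, but 3 of them overlapped the control range. Its means were 11.40 ± 0.05 after spatial learning and 11.50 ± 0.11 after the control task (SD, n = 6 each), a difference of -0.10 (SE 0.05) and a linear ratio of 0.936. The differences had the same sign at the 2 probe sets and unequal size.

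The disagreement can be put as a value per array. The signal of 1371003_at minus that of 1373363_at averaged -3.60 ± 0.21 in spatial learning arrays, between -3.85 and -3.25, and -3.09 ± 0.20 in control task arrays, between -3.30 and -2.77 (SD, n = 6 each). The groups overlapped only in the stretch between -3.30 and -3.25. The gap between the differences was 0.51. The median gap was 0.09 among the 1408 pairs of tested probe sets that share a gene symbol, over 951 genes. Of these pairs, 22 (1.56%) had a gap at least as wide as that of Map1b. The gene was chosen with this disagreement known, so nothing is read from that share. No source used here gives the position of either probe set along the Map1b transcripts, so the data do not say which transcript ends or forms the 2 probe sets read.

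**Figure D2:**
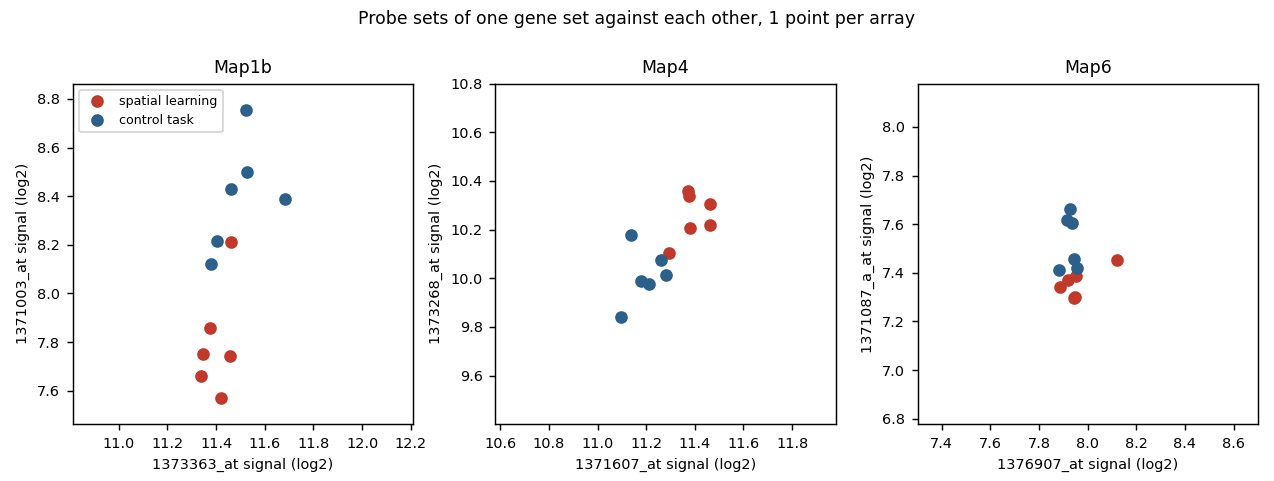
Log2 signals of 2 probe sets of one gene plotted against each other for Map1b, Map4 and Map6, 1 point per array, red for spatial learning and blue for control task, with both axes of a panel spanning the same 1.4 log2 units. The groups are shifted, with some overlap, along the vertical axis for Map1b and, by a smaller step, for Map6. For Map4 they are shifted along both axes, without overlap only along the horizontal one, 1371607_at.

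Map1a, the MAP1 gene of mature neurons, was measured by 1 probe set and stood level. It ran from 10.97 through 11.20 to 11.36 in spatial learning arrays and from 11.03 through 11.20 to 11.34 in control task arrays. The ranges nearly coincided, and the difference was -0.01 (SE 0.07, n = 6 each). A difference this small or smaller was found in few probe sets, since 93.0% of the tested ones had a wider one.

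Map2, the dendritic microtubule protein, had its wider difference at the probe set with the wider scatter. Probe set 1368411_a_at, whose suffix marks probes shared by several transcripts of the same gene, ran from 9.76 through 9.96 to 10.60 in spatial learning arrays and from 10.22 through 10.36 to 10.69 in control task arrays. Of the 6 spatial learning arrays 4 lay below every control, while replicates 3 and 5, at 10.60 and 10.35, lay inside the control range. The difference was -0.33 (SE 0.14), from means of 10.09 ± 0.32 after spatial learning and 10.42 ± 0.22 after the control task (SD, n = 6 each). The pooled SD of 0.27 was the widest of the 13 members.

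The other Map2 probe set, 1388152_at, ran from 12.32 through 12.61 to 12.69 in spatial learning arrays and from 12.53 through 12.64 to 12.80 in control task arrays. The groups overlapped through most of their range, with 1 spatial learning array, replicate 5, below all controls. Its difference was -0.08 (SE 0.06), from means of 12.57 ± 0.13 after spatial learning and 12.65 ± 0.09 after the control task (SD, n = 6 each).

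Tau was measured by 3 probe sets annotated to the same sequence record, so they are not 3 independent looks at the gene, and none of them set the groups apart. Probe set 1387071_a_at averaged 13.08 ± 0.11 after spatial learning and 13.12 ± 0.09 after the control task, with a difference of -0.04 (SE 0.05). Probe set 1368138_at averaged 10.15 ± 0.17 after spatial learning and 10.12 ± 0.08 after the control task, with a difference of 0.03 (SE 0.07), all values SD with n = 6 each. Apart from spatial learning replicate 3, at 9.82, the arrays of both groups lay between 10.00 and 10.29 at that probe set.

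The third tau probe set, 1368137_at, differed in scatter between the groups more than in level. Spatial learning arrays were tightly grouped between 9.77 and 9.91 around a median of 9.85. Control task arrays spread between 9.55 and 10.20 around a median of 9.99, with replicates 1, 2 and 4 at 10.08 to 10.20 and replicates 5 and 6 at 9.55 and 9.62. The SD was 0.05 after spatial learning and 0.28 after the control task, and the means, 9.84 and 9.92, differed by -0.07 (SE 0.11, n = 6 each). A difference in scatter was not tested.

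Map6, the gene of the STOP proteins, stood lower at 2 of its 3 probe sets. Probe set 1371087_a_at ran from 7.29 through 7.36 to 7.45 in spatial learning arrays and from 7.41 through 7.53 to 7.66 in control task arrays. Of the spatial learning arrays 5 lay below every control, and replicate 5, at 7.45, lay above 2 of them. The means were 7.36 ± 0.06 after spatial learning and 7.53 ± 0.11 after the control task (SD, n = 6 each), a difference of -0.17 (SE 0.06) and a linear ratio of 0.889.

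Probe set 1368345_at gave a difference of the same size, -0.17 (SE 0.08), from means of 8.50 ± 0.18 after spatial learning and 8.67 ± 0.12 after the control task (SD, n = 6 each). Its groups overlapped more, with 3 of 6 spatial learning arrays at or above the lowest control and replicate 1, at 8.80, the highest of all 12 arrays. The third probe set, 1376907_at, was level, at 7.96 ± 0.08 after spatial learning and 7.93 ± 0.03 after the control task, with a difference of 0.03 (SE 0.04, n = 6 each).

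Set against each other per array, Map6 1371087_a_at minus 1376907_at lay between -0.67 and -0.54 in spatial learning arrays and between -0.53 and -0.27 in control task arrays. These ranges did not overlap, with means of -0.60 ± 0.06 after spatial learning and -0.40 ± 0.11 after the control task (SD, n = 6 each). Of the 9 same-gene pairs among the members this was the only one that separated the groups, beside 16 of 1408 such pairs (1.14%) over the table. The gap of 0.20 itself was not rare, since 14.9% of the pairs had one at least as wide.

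**Figure D3:**
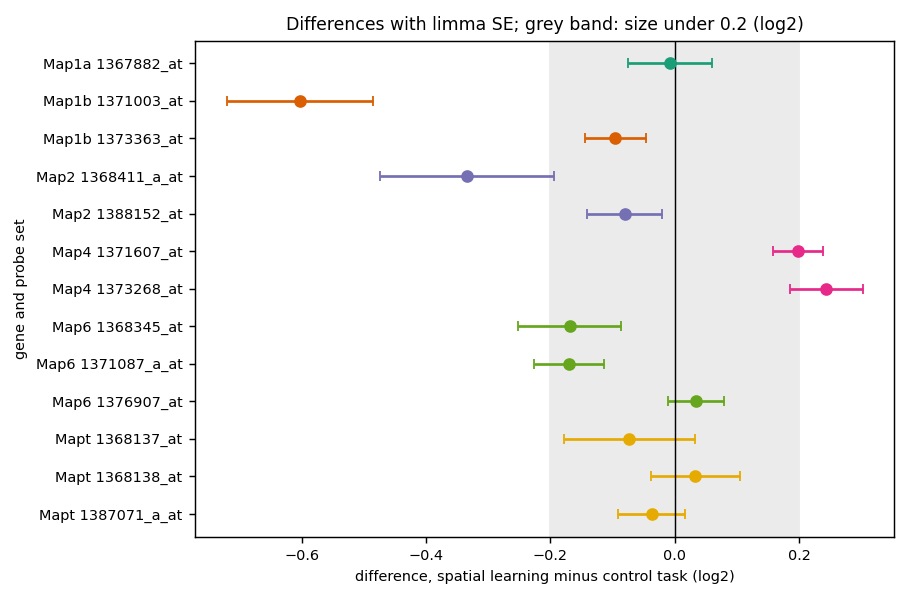
Difference in log2 signal (horizontal axis, spatial learning minus control task) of each probe set, with limma's SE as the bar and 1 colour per gene; the grey band marks differences under 0.2 in size. Map4 1373268_at at 0.24 lies right of the band and Map4 1371607_at at its edge, Map1b 1371003_at at -0.60 and Map2 1368411_a_at at -0.33 lie left of the band, and the rest fall inside it.

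The difference was under 0.2 in 10 of the 13 probe sets, beside 92.2% of all tested ones. The exceptions were Map1b 1371003_at, Map2 1368411_a_at and Map4 1373268_at. The members' SEs ran from 0.04 to 0.14, beside a median SE of 0.07 over the table.

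Whether 2 probe sets of a gene follow each other from rat to rat was asked of the deviations from the group means, which hold nothing of the contrast the genes were chosen on. Over the 9 same-gene pairs the correlation across the 12 arrays ran from -0.19 to 0.44 with a median of 0.10, and 0 pairs passed after adjustment over the 9 (2-sided permutation test within groups, smallest adjusted p = 0.787, 0 with an unadjusted p under 0.05). The Map1b pair was highest, with Pearson r = 0.44 (permutation p = 0.175, adjusted 0.787) and Spearman rho = 0.62 (permutation p = 0.0509, adjusted 0.458). It had r = 0.44 without the 2 arrays farthest from the median. Here and below those 2 arrays were chosen on 1 probe set of the pair, so an array outlying at the other could remain. The Map4 pair, which agreed in its difference, had r = 0.35 (permutation p = 0.305, adjusted 0.821) and rho = 0.16 (permutation p = 0.637, adjusted 0.880). It had r = 0.15 without the 2 farthest arrays. Among the 3 tau pairs, r was -0.18, -0.13 and 0.30, although these probe sets share 1 sequence record. Without the 2 farthest arrays these were -0.59 (permutation p = 0.0206, adjusted 0.185), -0.32 (permutation p = 0.361, adjusted 0.464) and 0.63 (permutation p = 0.0619, adjusted 0.279). For the first of these, 1368137_at with 1368138_at, the arrays were chosen on 1368137_at. Spatial learning replicate 3, which stood apart at 1368138_at, was kept there. Low correlations were usual for the table, where the 1408 same-gene pairs had a median r of 0.20 and quartiles of -0.09 and 0.46.

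Between different genes, 69 pairs of member probe sets were compared in the same way, with r between -0.81 and 0.82 and a median of 0.01. After adjustment over the 69, 0 passed (2-sided permutation test within groups, smallest adjusted p = 0.137), and 6 had an unadjusted p under 0.05. The strongest was Map1a with Map1b 1371003_at, with r = 0.82 (permutation p = 0.00199, adjusted 0.137) and rho = 0.82 (permutation p = 0.00195, adjusted 0.135), and r = 0.88 without the 2 farthest arrays. The strongest opposite pair was Map2 1368411_a_at with Mapt 1368138_at, with r = -0.81 (permutation p = 0.00402, adjusted 0.139), rho = -0.70 (permutation p = 0.0175, adjusted 0.317) and r = -0.62 without the 2 farthest arrays (permutation p = 0.0658, adjusted 0.654).

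**Figure D4:**
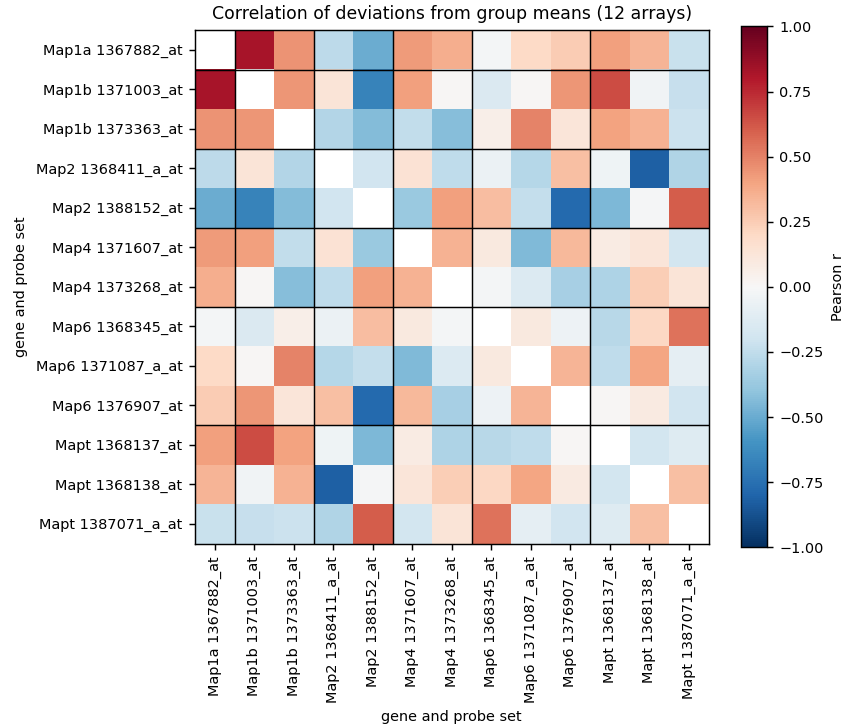
Pearson correlation (colour, from -1 in blue to 1 in red) of deviations from the group means over 12 arrays, for every pair of the 13 probe sets, with black lines between genes. The blocks along the diagonal, pairs of one gene, are pale, while single pairs of different genes, such as Map1a with Map1b 1371003_at at 0.82, are deeper.

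Genes most like a member in these deviations were listed, for the brightest probe set of each gene and for both probe sets of Map1b and Map4, by rank of Pearson r among 7998 other named probe sets, as a description with no test, since the highest of so many values is high by selection. For Map1a they were Gabbr2, a GABA-B receptor subunit, at r = 0.98 and rho = 0.94, with Shisa4 and Ube4b at r = 0.90 and 0.89. For Map1b 1371003_at they were Hmgn1, Vapb and Ly6h at r = 0.92, 0.91 and 0.91, and for Map1b 1373363_at Mmp24, Ypel5 and Zmiz1 at r = 0.88, 0.83 and 0.83. For Map4 1371607_at they were Anxa5, Slit1 and Psmg3 at r = 0.93, 0.88 and 0.88, and for Map4 1373268_at Abcb9, Kdm4b and a second probe set of Mmp24 at r = 0.88, 0.87 and 0.86. For Map2 1388152_at they were Plxna3, Ddx50 and Stap2 at r = 0.93, 0.92 and 0.90, and for Map6 1368345_at Eri3, Prpsap1 and Tars2 at r = 0.96, 0.89 and 0.87. For Mapt 1387071_a_at they were Apaf1, Paxx and Por at r = 0.87, 0.82 and 0.82. All these correlations were over 12 arrays.

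The proteins these genes work with were taken from lists of 138 tubulin, microtubule and motor genes, of which 93 were tested through their brightest probe set. Of these, 0 passed higher and 0 lower by limma's adjusted p. An unadjusted limma p under 0.05 was found in 12 of the 93, beside 1048 of 9610 probe sets (10.9%) over the table, and nothing is read from that count. Their median difference was -0.01, with 44 higher and 49 lower, beside 0.01 over the whole table. Among 9 tubulins, the building blocks of the polymer, the median was 0.00, with Tubb2a at -0.08 (SE 0.06), the neuronal isotype Tubb3 at 0.00 (SE 0.06) and Tubb5 at 0.04 (SE 0.04). The other Tubb5 probe set stood at 0.13 (SE 0.09). Tubulin folding and modifying enzymes had a median of 0.04 over 11 genes, with the tyrosine ligase Ttl at 0.07 (SE 0.06) and the deacetylase Hdac6 at 0.08 (SE 0.05).

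Stathmins and severing enzymes, which take microtubules apart, had a median of -0.06 over 5 genes, with Stmn1 at -0.20 (SE 0.09) and Stmn2 at 0.02 (SE 0.05). The other Stmn2 probe set stood at -0.06 (SE 0.05). Other listed proteins that bind microtubules or tubulin had a median of -0.02 over 14 genes, with Dclk1 at -0.04 (SE 0.03), Dpysl2 at -0.03 (SE 0.04) and Map1lc3a at 0.05 (SE 0.05). Further Dclk1 probe sets differed in sign, at -0.13 (SE 0.05) and 0.09 (SE 0.07). Dcx, the doublecortin of young neurons, lay below the filter, at 2.65 ± 0.01 after spatial learning and 2.72 ± 0.12 after the control task (SD, n = 6 each). Proteins of the microtubule ends had a median of -0.06 over 10 genes, with Mapre1 at -0.06 (SE 0.04) and Mapre3 at 0.01 (SE 0.07). Further Mapre1 probe sets stood at -0.19 (SE 0.09) and -0.00 (SE 0.04).

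Kinases and phosphatases that act on tau and its relatives had a median of -0.00 over 20 genes. Mark2, a kinase that detaches microtubule-associated proteins from the polymer, stood at 0.09 (SE 0.06) and Mark1 at -0.00 (SE 0.12). The tau kinases Gsk3b and Cdk5 stood at -0.18 (SE 0.12) and 0.02 (SE 0.07), and Cdk5r1, the activator of Cdk5, at -0.17 (SE 0.07). Motors had a median of -0.01 over 24 genes, with the dynein heavy chain Dync1h1 at 0.03 (SE 0.05), the kinesin Kif5a at -0.10 (SE 0.06) and the dynein regulator Pafah1b1 at -0.43 (SE 0.23). At its other probe set Pafah1b1 stood at -0.28 (SE 0.11). A second probe set of Kif5a stood at -0.90 (SE 0.52), where arrays of each group were spread widely, from 7.53 to 9.70 after spatial learning and from 8.16 to 10.65 after the control task. Besides Stmn1 and Cdk5r1, the partner genes with an unadjusted limma p under 0.05 were named after their values were seen. The higher ones were Tuba8 at 0.17 (SE 0.06), Tbce at 0.19 (SE 0.07), Tbcd at 0.12 (SE 0.06), Dpysl4 at 0.33 (SE 0.11), Jakmip1 at 0.09 (SE 0.03), Ppp2cb at 0.11 (SE 0.05) and Kif1c at 0.23 (SE 0.08). The lower ones were Dctn4, a dynactin subunit, at -0.32 (SE 0.08) with a second probe set at -0.22, Mapre2 at -0.20 (SE 0.09) and the kinase Mapk8 at -0.16 (SE 0.06). Of the 93 partner genes, Mapk8 was the only one whose groups did not overlap, beside 0.271% of the table in its direction. Of those chosen for naming, Tuba1a, Map1lc3b, Kif1a, Kif5c and Kif17 are not analysed here.

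Markers of the tissue and of RNA quality were read from the same arrays. All 7 measured CA1 markers and all 8 astrocyte and 7 oligodendrocyte markers lay above the filter, while 3 of 6 choroid plexus markers, F5, Folr1 and Kl, lay below it. CA1 markers averaged between 9.87 and 10.27 in spatial learning arrays and between 9.79 and 10.10 in control task arrays (exact permutation p = 0.0411, adjusted over 12 measures 0.123). One of them, Dcn, was also in the meningeal list, and the 10.10 was that of control replicate 6, which had a high meningeal mean. Microglia markers averaged between 6.25 and 6.56 in spatial learning arrays and between 6.43 and 6.79 in control task arrays (exact permutation p = 0.0368, adjusted 0.123), with 5 of 6 of them above the filter and Cx3cr1 below it. Dentate gyrus markers, with Dsp below the filter, averaged 6.62 ± 0.07 after spatial learning and 6.76 ± 0.15 after the control task (SD, n = 6 each, exact permutation p = 0.0801, adjusted 0.156). Astrocyte markers averaged 11.33 ± 0.07 and 11.39 ± 0.03 (exact permutation p = 0.0909, adjusted 0.156). Choroid plexus markers averaged 4.36 to 4.56 in spatial learning arrays and 4.53 to 6.56 in control task arrays (exact permutation p = 0.0108, adjusted 0.0649), and the 3′ minus 5′ signal gap of the hexokinase control, a measure of RNA integrity, ran from 1.55 to 1.82 in spatial learning arrays and from 1.35 to 1.55 in control task arrays (exact permutation p = 0.00433, adjusted 0.0519). The same gap of the beta-actin control averaged 1.93 ± 0.07 after spatial learning and 1.83 ± 0.09 after the control task (SD, n = 6 each, exact permutation p = 0.0779, adjusted 0.156). For the Gapdh control it averaged 0.37 ± 0.08 and 0.37 ± 0.06 (exact permutation p = 0.998, adjusted 0.998). In bulk tissue fewer cells of a type and less RNA per cell cannot be told apart, and both probe set signals and the tissue markers are subject to that. With the hexokinase gap as a covariate the Map1b 1371003_at difference was -0.58 (SE 0.17) and that of Map4 1371607_at 0.17 (SE 0.06). That of Map4 1373268_at was 0.27 (SE 0.08), whereas that of Map2 1368411_a_at was -0.16 (SE 0.19). These SEs are wider than without the covariate. The groups hardly overlapped in the hexokinase gap, so group and RNA integrity cannot be told apart by this fit. The mean of CA1, dentate gyrus, astrocyte, microglia or choroid plexus markers was also used as a covariate, 1 at a time. The differences then lay between -0.69 and -0.50 for Map1b 1371003_at and between 0.17 and 0.21 for Map4 1371607_at. They lay between 0.16 and 0.29 for Map4 1373268_at, and between -0.51 and -0.17 for Map2 1368411_a_at.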

How the data were processed

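The authors deposited 1 table of log2 probe set signals from 12 arrays, made with GCRMA per the submitters' processing notes, with version and settings not given in the sources used here. GCRMA corrects background by probe sequence, equalises the distributions of the arrays, which hides any change in total RNA, and compresses differences of dim probe sets. The log2 scale was settled from the range, 0.134 to 14.8. Groups and replicate numbers came from the sample titles, which name biological replicates, and no scan batch could be tested.

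Genes were taken from the platform annotation, in which 12783 had 1 gene symbol, 312 several and 2771 none; 57 control probe sets were left out. Probe sets with a mean of at least 4 were fitted with limma 3.58.1 in R 4.3.3 (eBayes with an intensity trend, 2-sided, Benjamini-Hochberg adjustment over 9610, threshold 0.05). Control measures and marker means were compared by exact permutation over 924 splits, correlations by 100000 permutations within groups. The genes, lists and tests were chosen with earlier results of these data known. Text names every member probe set, partner genes listed by name, any other partner gene past an unadjusted p of 0.05 (10 genes, added after values were seen), and the 3 genes closest to the brightest probe set of each member gene and to both probe sets of Map1b and Map4. On simulated data (9581 probe sets, same groups), 86% of 100 changes of 0.5 and 94% of 100 changes of 1 were recovered, with 11 unchanged ones called. These shares hold for the simulation only, which planted 200 changes and none smaller than 0.5. On the real arrays 0 of 9610 passed, and Map1b 1371003_at, at -0.60, was among those not called. What share of true changes the real arrays could recover was not tested. Arrays limit precision by their number, 6 per group. Probe sequences and positions were not used here.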

Additional observations from a re-analysis of the deposited data

Results flagged for a closer look

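In 2 of the 26 combinations of a member probe set and a group, 1 array stood apart from the other 5 by a Dixon test, where chance alone flags about 1 in 20. Spatial learning replicate 5 stood at 8.12 for Map6 1376907_at, with the next spatial learning array at 7.95 and the lowest at 7.89. Spatial learning replicate 3 stood at 9.82 for Mapt 1368138_at, with the next at 10.15 and the highest at 10.29. Without replicate 5 the Map6 difference was 0.00, against 0.03 with it, and without replicate 3 the Mapt difference was 0.10, against 0.03 with it.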

How the results depend on the processing

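Over 24 alternatives per member, 5 of them chosen after seeing the data (marker means as covariates), no member's difference moved by as much as the SD between replicates. That SD is wider than the SE of the difference for every member, so it is a lenient measure. Map2 1368411_a_at, at -0.33, went to -0.16 with the hexokinase gap as a covariate and was counted as not moved. So was Mapt 1387071_a_at, which went from -0.04 to -0.13 with the microglia marker mean as a covariate. The sign changed for Map1a in 8 alternatives, for Mapt 1368137_at and 1368138_at in 2 each and for Map6 1376907_at in 1, all differences under 0.08 in size. Several small differences moved by over 1.5 times when 1 array was left out: Map1b 1373363_at to -0.06 without control replicate 3, Map2 1388152_at to -0.03 without spatial learning replicate 5 and to -0.05 without control replicate 5, and Mapt 1368137_at to between -0.04 and -0.02 without control replicates 1, 2 or 4 and to -0.15 and -0.13 without control replicates 5 and 6. Map1a, the other 2 Mapt probe sets and Map6 1376907_at, all under 0.05 in size, ranged from -0.04 to 0.04, from 0.01 to 0.10 (1368138_at), from -0.07 to -0.02 (1387071_a_at) and from 0.00 to 0.05. With marker means as covariates Map1b 1373363_at ranged from -0.15 to -0.03. Leaving out each array in turn, Map1b 1371003_at ranged from -0.69 to -0.53, Map2 1368411_a_at from -0.44 to -0.27, Map4 1371607_at from 0.18 to 0.22 and Map4 1373268_at from 0.21 to 0.28. The number of probe sets past the limma threshold, 0 in the table as tested, was 1 higher and 2 lower with array quality weights, 1 of the lower being Map1b 1371003_at (limma adjusted p = 0.0462, between 0.0760 and 0.721 under every other setting). It was 2 higher and 3 lower without control replicates 3 and 6 and spatial learning replicate 6, which carried high choroid plexus or meningeal transcripts, 1 lower with the astrocyte marker mean as a covariate, and, leaving out each array in turn, 0 to 1 higher and 0 to 2 lower, the calls coming without control replicate 6; none of these was a member, and the cause was not tested. With the replicate number as a replicate block the count was 0. Deviations of same-numbered arrays correlated between -0.17 and 0.08, and 2 of 12 arrays correlated best with their own number. Both replicate 6 arrays had high meningeal marker means (6.84 control task, 6.75 spatial learning). Whether same-numbered arrays shared a batch was not tested. Of the partner genes, 0 passed in any of these fits, while 5 list medians moved by more than the spread between replicates, to values between -0.12 and 0.06. Of the 9 same-gene pairs, 0 passed with Spearman rho or without the 2 farthest arrays. Dim signals near background and 6 arrays per group limit what can be seen.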
